A study of Homo sapiens with 6 samples.

Results

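ATF4 and 9 genes of the integrated stress response were followed in LX-2, an immortalised human hepatic stellate line. Stellate cells are the main source of fibrous matrix in an injured liver. The 10 genes were taken by their symbols, as members of this pathway. They are the transcription factor ATF4, the stress sensor kinase EIF2AK3 (PERK), the phosphatase subunit PPP1R15A (GADD34), the ATF4 targets TRIB3, CHAC1, ASNS, DDIT4, NUPR1 and SESN2, and the ATF4 partner CEBPB. All 10 were among the 60669 rows of the deposited table, and all 10 passed the filter on low values, a mean of at least 10 over the 6 libraries that kept 15637 genes.

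The study compared wild-type LX-2 cells given a control small interfering RNA (siCTL, 3 libraries) with cells given an siRNA against ADAMTS12 (siADAMTS12, 3 libraries). ADAMTS12 is a secreted metalloprotease. Both groups were transfected with the same lipid reagent and collected 48 h later, there was no untransfected group, and 1 siRNA sequence is given for the target. The labels do not state whether the 3 libraries of a group are separate cultures. Every p-value therefore reflects the spread between these libraries alone, which may be technical.

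The integrated stress response begins when a kinase (PERK in the endoplasmic reticulum, GCN2, PKR or HRI elsewhere) phosphorylates the translation factor eIF2. Bulk protein synthesis then slows, while upstream open reading frames let ribosomes reach the ATF4 coding sequence more often, so ATF4 protein is set largely by translation and the ATF4 mRNA level is not a measure of it. ATF4 pairs with other bZIP proteins and switches on genes for amino acid import and synthesis, tRNA charging, redox control and, through PPP1R15A, dephosphorylation of eIF2. Stellate cells secrete large amounts of collagen and depend on the folding capacity of the endoplasmic reticulum.

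An siRNA can also lower other transcripts that match its seed, guide positions 2 to 8, in their 3′ UTR. The guide is therefore shown with a window for each of the 10 genes that held a match. The seed or its match is in capitals. The guide was built as the complement of the sense strand in the labels. The match to positions 2 to 8 is the 7-mer GAGGGAA, a base opposite position 1 makes it the 8-mer GAGGGAAA, and positions 2 to 7 alone match the 6-mer AGGGAA. The windows are 5′ to 3′ on the transcript strand, in GRCh38, at chr16:28535284-28535311 (NUPR1, minus strand), chr22:39522667-39522685 (ATF4, plus strand, up to the end of the transcript) and chr2:88557098-88557123 (EIF2AK3, minus strand).
siADAMTS12 sense strand: gccaaaguuuggagggaaa
siADAMTS12 guide strand: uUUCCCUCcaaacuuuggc
NUPR1 3′ UTR: aagagagaagGAGGGAAAgaaagaggaa
ATF4 3′ UTR: attattttgtAGGGAAagt
EIF2AK3 3′ UTR: cctccaataaAGGGAAaatgaagctt

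NUPR1 was the 1 gene of the 10 with the 7-mer or 8-mer, ATF4 and EIF2AK3 held the 6-mer only, and the other 7 held none of them. Among 12606 tested genes with a 3′ UTR to search, 15.6% held the 7-mer and a further 25.7% the 6-mer alone. The window shown for NUPR1 holds the 8-mer at 3′ UTR position 2382. Further 7-mers lie at positions 2410, 2418 and 2434, and a 6-mer at 3087. The NUPR1 matches depend on the transcript. They lie in the 4975-base 3′ UTR of the annotated 5491-base transcript and are absent from the 146-base 3′ UTR of the 550-base one. The part of the seed matches in the changes given here was not tested.

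The promoters show which of the genes carry a textbook element of this pathway close to the start. The C/EBP-ATF response element, through which ATF4 dimers act, was searched by its core TGATGNAA, and the cyclic AMP response element, bound by CREB and ATF family dimers, by TGACGTCA, on both strands, from 250 bases before to 50 after each RefSeq start on GRCh38.p14. Of the 10 genes, 9 had a promoter in the RefSeq table, and NUPR1 was not matched. The windows below are on each gene's own strand, with the element in capitals, at chr7:97872458-97872487 (ASNS, minus strand), chr15:40953251-40953280 (CHAC1, plus strand, element on the opposite strand) and chr19:48872352-48872381 (PPP1R15A, plus strand).
ASNS promoter, TGATGNAA: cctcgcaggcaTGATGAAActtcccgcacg
CHAC1 promoter, TGATGNAA: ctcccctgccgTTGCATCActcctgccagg
PPP1R15A promoter, TGACGTCA: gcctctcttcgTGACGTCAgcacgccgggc

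TGATGNAA was found in the promoters of 2 of the 9 genes, ASNS and CHAC1, and in those of 4.46% of 27305 genes (3.62% of 35116 promoters). TGACGTCA was found in 1 of the 9, PPP1R15A, and in those of 2.25% of genes (1.85% of promoters). None of these 3 genes passed the test described next, although the windows say nothing of elements further from the start.

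The target transcript ADAMTS12 fell to 28.5% of its siCTL level (13709, 12235 and 13423 against 4083, 3449 and 3687 normalized counts, adjusted p = 4.81e-08). The deposited columns summed to 30.7 to 34.1 M normalized counts, less in every siADAMTS12 library, and giving every column the same total moved the median log2 fold change of all genes from 0.00 to 0.13. Several stellate markers were abundant (COL1A1 was at least 92869 and VIM at least 130409 in every library, and TAGLN and ACTA2 were present). Others were low or absent. PDGFRA was at most 37 and HAND2 at most 38 in any library, and LRAT was listed at 0 in all 6 libraries and DES in 5. The summed level of the 12 stellate markers was 377404 to 417588 in siCTL and 286063 to 308719 in siADAMTS12. VIM alone went from a mean of 201651 to 137566, and PDGFRB from 1452 to 830 (log2 fold change -0.80). All 10 tested stellate markers were lower in siADAMTS12. Of these, 5 passed the threshold described below, where 15.5% of all tested genes fell. Of the other cell types, hepatocyte markers summed to 18 to 20 in siCTL and 23 to 29 in siADAMTS12 (3 of 8 at 0 throughout). Macrophage markers summed to 126 to 153 and 119 to 150 (1 of 6 at 0), and endothelial markers to 139 to 157 and 65 to 79 (2 of 6 at 0, KDR fell). Cholangiocyte markers summed to 1874 to 2232 and 1733 to 2071, most of it SOX9 (1585 to 1950 and 1500 to 1819). KRT19 and EPCAM were at most 7 and CFTR at most 1 in any library. The part of these markers in the results for the 10 genes was not tested.

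Values are the deposited normalized counts, given for replicates 1, 2 and 3 in that order, with means ± SD (n = 3). Fold changes are siADAMTS12 over siCTL on the log2(value + 1) scale with a moderated SE and 95% interval, and adjusted p-values come from limma with the Benjamini-Hochberg method over all 15637 genes, with a threshold of 0.05. Of the 10 genes, ATF4 and NUPR1 fell, SESN2 rose, and 7 did not pass. Calls were made for 27.0% of all tested genes, with 15.5% lower and 11.5% higher, so 3 calls in 10 is close to the background. Non-overlapping groups were seen for 4 of the 10 genes, against 40.9% of all tested genes. The median log2 fold change of the 10 was -0.18, beside 0.00 for all tested genes.

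**Figure D1:**
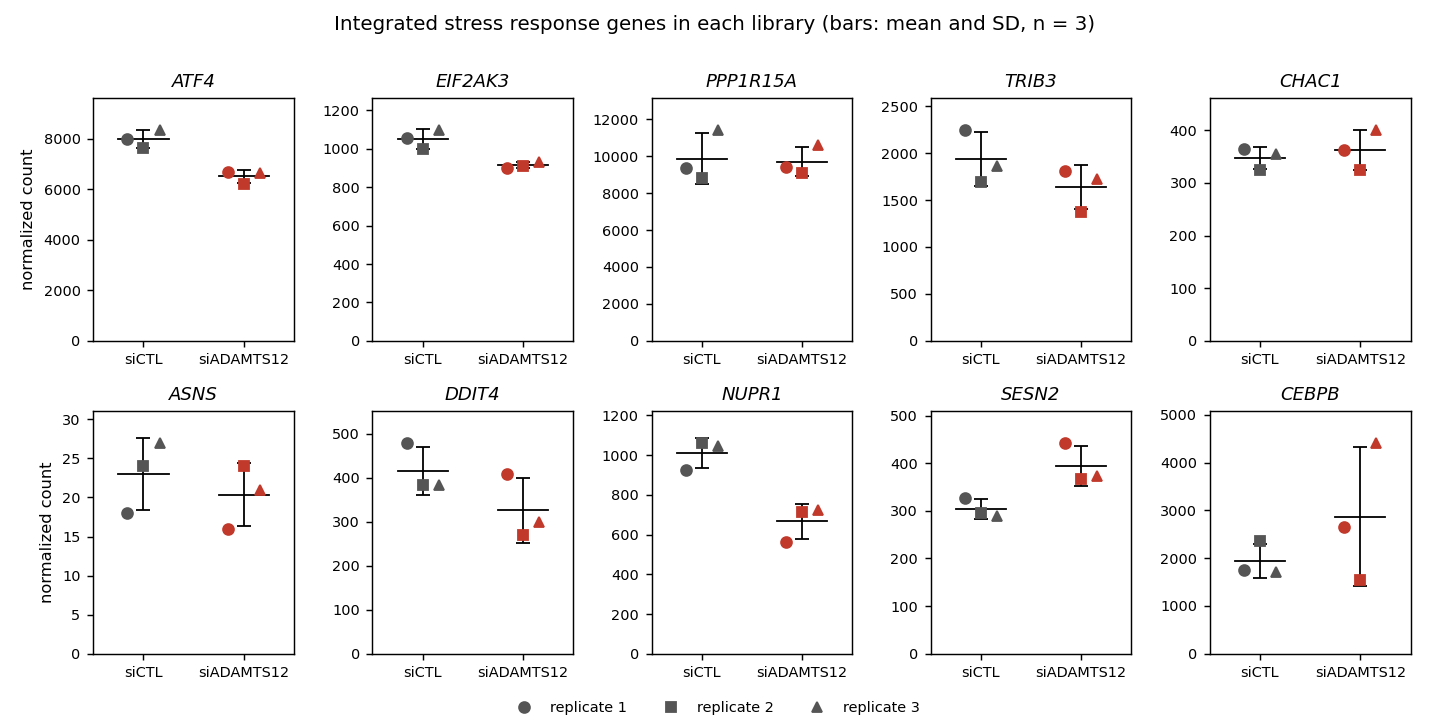
Normalized counts of the 10 genes in each library (vertical axes, starting at 0), with siCTL in grey and siADAMTS12 in red and the marker shape giving the replicate number; horizontal lines are means and bars SD (n = 3). All 3 siADAMTS12 libraries lie below the siCTL libraries for ATF4, EIF2AK3 and NUPR1 and above them for SESN2, while CEBPB ranges from 1547 to 4417 within siADAMTS12.

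ATF4 (ENSG00000128272, chromosome 22, 39519695 to 39522685, plus strand, GRCh38) is the transcription factor at the centre of the response. Its normalized count was 7994, 7623 and 8347 in siCTL and 6668, 6214 and 6644 in siADAMTS12. Every siADAMTS12 library was below every siCTL library. Mean levels were 7988 ± 362 and 6509 ± 255, for a log2 fold change of -0.30 ± 0.06 (SE; interval -0.43 to -0.16; adjusted p = 0.00414). The size of this fall depended on how the columns were scaled to each other. It was -0.13 after quantile normalization (adjusted p = 0.138) and -0.17 with the same total in every column (adjusted p = 0.0503), and passed in neither. The median of all tested genes was 0.03 after quantile normalization and 0.13 with the same total, against 0.00 as deposited. Equal totals thus moved ATF4 upward together with the other genes. The smallest adjusted p among the alternatives was 0.000972. In bulk RNA a lower value can come from fewer cells of a type or from less RNA per cell, and these cannot be told apart. Its processed pseudogenes ATF4P1 to ATF4P4 had means of at most 5, and how reads shared with them were counted is not stated.

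EIF2AK3 (ENSG00000172071, chromosome 2, 88556741 to 88627576, minus strand) encodes PERK, the eIF2 kinase that senses unfolded protein in the endoplasmic reticulum. The siCTL libraries had normalized counts of 1059, 998 and 1099, and the siADAMTS12 libraries 902, 912 and 931. The groups did not overlap and the siADAMTS12 libraries lay close together. The mean was 1052 ± 50.9 in siCTL and 915 ± 14.7 in siADAMTS12, a log2 difference of -0.20 ± 0.07 (interval -0.35 to -0.05), with an adjusted p of 0.0503, just outside the threshold. With the replicate number as a block it passed (adjusted p = 0.0290), as it did with a minimum mean of 50 (0.0423) and without siCTL replicate 2 (0.0455). That block treats same-numbered libraries as pairs, because the labels give both groups the same numbers without saying what they share.

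PPP1R15A (ENSG00000087074, chromosome 19, 48872392 to 48876057, plus strand) encodes GADD34, which brings protein phosphatase 1 to eIF2 and so closes the feedback loop. Its normalized count was 9376, 8823 and 11429 in siCTL and 9390, 9107 and 10601 in siADAMTS12. Replicate 3 was highest in both groups and the groups overlapped over most of their range. The log2 difference was -0.02 ± 0.10 (interval -0.23 to 0.19; adjusted p = 0.906), and its sign turned under other scalings (0.13 after quantile normalization and 0.10 with the same total per column).

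NUPR1 (ENSG00000176046, chromosome 16, 28532708 to 28539174, minus strand) encodes a small stress-induced chromatin protein. It had the largest fall of the 10 genes. The siCTL libraries had normalized counts of 924, 1062 and 1045, and the siADAMTS12 libraries 563, 711 and 724. Replicate 1 was lowest in each group, and all siADAMTS12 libraries were below all siCTL libraries. Mean levels were 1010 ± 75.2 and 666 ± 89.4, for a log2 fold change of -0.61 ± 0.10 (interval -0.83 to -0.38; adjusted p = 0.00122). It passed in all 14 alternatives, with adjusted p from 0.000123 to 0.0195. This is also the gene whose long annotated 3′ UTR holds the 8-mer match shown above and the further matches listed with it.

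CEBPB (ENSG00000172216, chromosome 20, 50190734 to 50192689, plus strand) encodes a bZIP factor that can pair with ATF4. Its normalized count was 1748, 2362 and 1715 in siCTL and 2650, 1547 and 4417 in siADAMTS12. Both the lowest and the highest values of the 6 belonged to siADAMTS12. The mean was 1942 ± 364 and 2871 ± 1448, a log2 difference of 0.45 ± 0.28 (interval -0.17 to 1.07; adjusted p = 0.266). The difference turned on single libraries: without siADAMTS12 replicate 2 the log2 fold change was 0.83 (adjusted p = 0.00899), and without siADAMTS12 replicate 3 it was 0.08. The antisense gene CEBPB-AS1 had a mean of 33.8.

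TRIB3 (ENSG00000101255, chromosome 20, 362835 to 397559, plus strand) encodes a pseudokinase that is induced by ATF4 and restrains it. The siCTL libraries had normalized counts of 2248, 1687 and 1864, and the siADAMTS12 libraries 1814, 1372 and 1729. In both groups replicate 1 was highest and replicate 2 lowest, and the groups overlapped. The mean was 1933 ± 287 and 1638 ± 235, a log2 difference of -0.24 ± 0.12 (interval -0.50 to 0.02; adjusted p = 0.163). It ran from -0.33 to -0.12 with 1 library left out. With the replicate number as a block it passed (adjusted p = 0.0126), and each siADAMTS12 library was below the siCTL library of its number.

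CHAC1 (ENSG00000128965, chromosome 15, 40952962 to 40956519, plus strand) encodes an enzyme that breaks down glutathione. Its normalized count was 365, 325 and 355 in siCTL and 363, 324 and 401 in siADAMTS12. Replicates 1 and 2 were nearly equal between the groups. The log2 difference was 0.05 ± 0.10 (interval -0.17 to 0.28; adjusted p = 0.746).

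ASNS (ENSG00000070669, chromosome 7, 97852118 to 97872542, minus strand) encodes asparagine synthetase, a classic ATF4 target. Its listed value was 18, 24 and 27 in siCTL and 16, 24 and 21 in siADAMTS12, far below the other 9 genes. A second annotated gene on the same strand, AC079781.5 (12, 9 and 15 against 12, 15 and 21), shares 1985 of the 2356 bases of the ASNS transcript, 84.25%. A read that fits 2 genes is left uncounted in some modes of HTSeq, and neither the mode nor the annotation is given in the sources used here, so the ASNS value cannot be read as its expression. The log2 difference was -0.17 ± 0.28 (interval -0.79 to 0.45; adjusted p = 0.707).

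DDIT4 (ENSG00000168209, chromosome 10, 72273920 to 72276036, plus strand) encodes REDD1, which inhibits mTORC1, the kinase complex that drives growth and protein synthesis, through the TSC complex. The siCTL libraries had normalized counts of 479, 382 and 384, and the siADAMTS12 libraries 409, 269 and 298. Replicate 1 was highest in both groups, and siADAMTS12 replicate 1 lay within the siCTL range. The mean was 415 ± 55.4 and 325 ± 73.9, a log2 difference of -0.37 ± 0.15 (interval -0.70 to -0.03; adjusted p = 0.0981). It passed with the replicate number as a block (adjusted p = 0.0102) and without siADAMTS12 replicate 1, where the log2 fold change was -0.54 (adjusted p = 0.0104).

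SESN2 (ENSG00000130766, chromosome 1, 28259527 to 28282491, plus strand) encodes a sestrin, a leucine-sensing inhibitor of mTORC1 that p53 as well as ATF4 can induce. It was the 1 gene of the 10 that rose. Its normalized count was 327, 295 and 290 in siCTL and 443, 366 and 374 in siADAMTS12. All siADAMTS12 libraries were above all siCTL libraries, with replicate 1 highest in both groups. Mean levels were 304 ± 20.1 and 394 ± 42.3, for a log2 fold change of 0.37 ± 0.10 (interval 0.14 to 0.60; adjusted p = 0.0218). It did not pass without siCTL replicate 2 (adjusted p = 0.0644), without siCTL replicate 3 (0.0750) or without siADAMTS12 replicate 1 (0.0924), and passed in the other 11 alternatives.

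**Figure D2:**
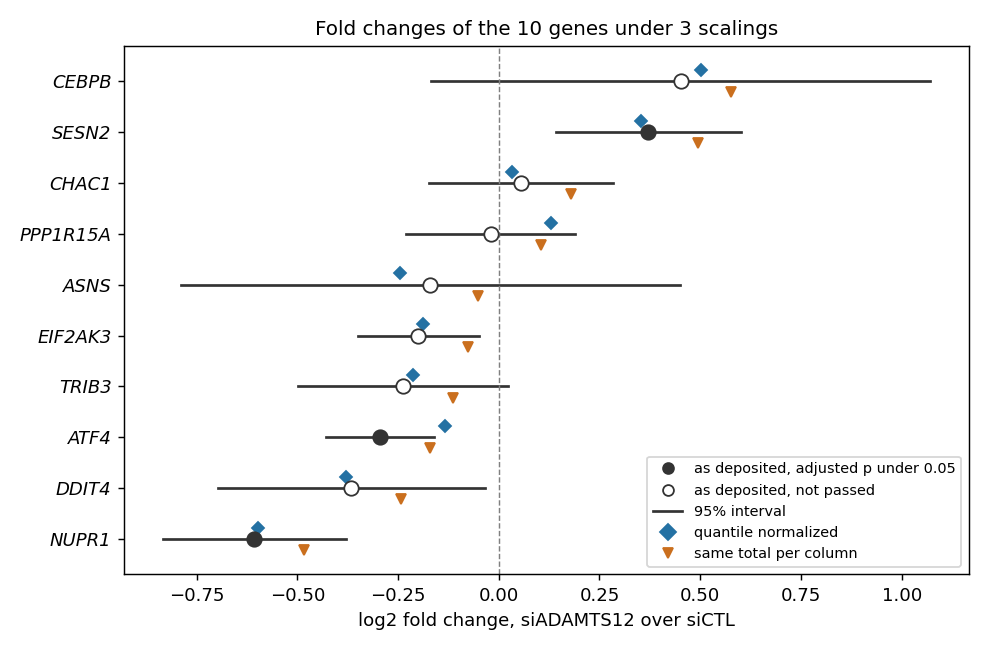
Log2 fold changes of the 10 genes, siADAMTS12 over siCTL (horizontal axis), as deposited (circles with 95% intervals, filled where the adjusted p was under 0.05), after quantile normalization (diamonds) and with the same total in every column (triangles). NUPR1 (-0.61) and SESN2 (0.37) stay on their side of 0 under all 3 scalings, ATF4 moves from -0.30 to -0.13 and -0.17, and PPP1R15A changes sign.

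Adding the replicate number as a block changed the calls among the 10 genes most. Of the 10, 5 fell in it (ATF4, EIF2AK3, TRIB3, DDIT4 and NUPR1) and SESN2 rose, while 4 did not pass. With equal totals and no block, the log2 difference of EIF2AK3 was -0.08, that of TRIB3 -0.11 and that of DDIT4 -0.24. Over all tested genes the replicate block raised the calls from 1798 higher and 2424 lower to 2423 and 3059, so more calls among the 10 came with more calls everywhere.

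Per kilobase of transcript, the genes spanned a wide range of levels, which depends on the annotated transcript taken. In siCTL the mean normalized count per kilobase was 3956 for ATF4 with its longest coding transcript and 5629 with its shortest. For PPP1R15A it was 4153 and 5725 in the same way, so these 2 genes cannot be ordered. TRIB3 lay between 774 and 2204, and CEBPB, with a single coding transcript, was at 993 (877 to 1208 over the libraries). EIF2AK3 lay between 226 and 363, CHAC1 between 188 and 408, and DDIT4 was at 237, with no order among them. SESN2 was below these at 88.0 (84.0 to 94.7). NUPR1 spanned 184 to 1837, since its 2 transcripts differ most in length, and ASNS was not placed for its shared bases.

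Dividing each gene by ATF4 in the same library removes any factor that scales a whole column. These ratios therefore do not depend on the total of the column. Quantile normalization is not such a factor, and the ratios were not recomputed under it. After it ATF4 was at -0.13, EIF2AK3 at -0.19, TRIB3 at -0.21 and ASNS at -0.24. EIF2AK3, TRIB3 and ASNS were then lower than ATF4, while their ratios as deposited were higher. The remaining genes stayed on the same side of ATF4. The ratio of SESN2 to ATF4 was -4.61, -4.69 and -4.84 on the log2 scale in siCTL and -3.91, -4.08 and -4.15 in siADAMTS12, higher in all 3 by a mean difference of 0.67. CHAC1 (difference 0.35), PPP1R15A (0.27) and EIF2AK3 (0.10) were also higher relative to ATF4 without overlap between the groups. NUPR1 was lower relative to ATF4 without overlap, at -3.11, -2.84 and -3.00 in siCTL against -3.56, -3.13 and -3.20, a difference of -0.31 that was -0.18 without siADAMTS12 replicate 1. For each of these 5 the exact 2-sided permutation p was 0.1, the smallest that 3 against 3 allows, and 0.18 after adjustment over the 9 ratios, so none could pass. The ratios of CEBPB (0.75, or 0.39 without siADAMTS12 replicate 3, exact permutation p = 0.2, adjusted 0.3), ASNS (0.13, exact p = 0.6, adjusted 0.675), DDIT4 (-0.07, exact p = 0.6, adjusted 0.675) and TRIB3 (0.06, exact p = 1, adjusted 1) overlapped between the groups. A ratio shows unequal change and does not by itself say which of the 2 genes moved. ATF4 had a log2 fold change of -0.30 as deposited, so a gene that did not change has a higher ratio. CHAC1 (log2 fold change 0.05) and PPP1R15A (-0.02) did not pass on their own. The share of all tested genes with non-overlapping ratios to ATF4 was not computed.

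**Figure D3:**
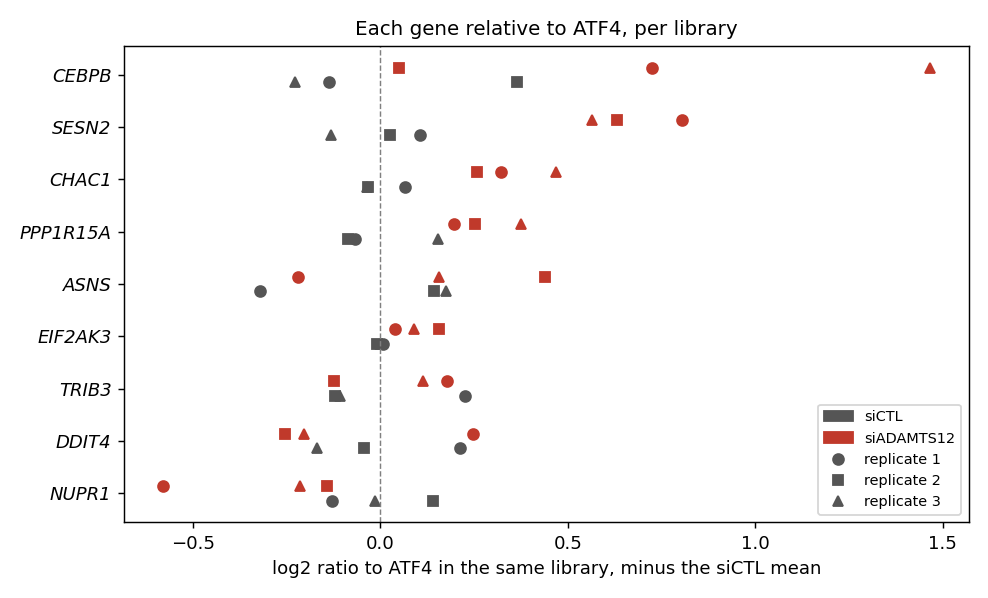
Log2 ratio of each gene to ATF4 in the same library, minus its siCTL mean (horizontal axis), 1 marker per library, siCTL in grey and siADAMTS12 in red with the shape giving the replicate number. SESN2, CHAC1, PPP1R15A and EIF2AK3 lie higher in all 3 siADAMTS12 libraries, NUPR1 lies lower, and TRIB3, DDIT4, ASNS and CEBPB overlap between the groups.

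Across the 6 libraries, which include the difference between the groups, the log2 values of ATF4 correlated with those of EIF2AK3 at Pearson r = 0.964, NUPR1 at 0.825, DDIT4 at 0.724, TRIB3 at 0.712, PPP1R15A at 0.337, ASNS at 0.256, CHAC1 at -0.00371, CEBPB at -0.326 and SESN2 at -0.781. These are descriptions, because 1394 of 12696 genes with a mean of at least 50 had r over 0.9 with ATF4. The 3 genes most like ATF4 were CAB39L, ALDH1L2 and CD200, all at r = 0.998. ALDH1L2, a mitochondrial folate enzyme, had values of 584, 527 and 638 in siCTL and 374, 327 and 390 in siADAMTS12 (log2 fold change -0.68, adjusted p = 0.000509). CAB39L, a partner of the kinase STK11, went from 258, 225 and 273 to 168, 139 and 165 (-0.68, adjusted p = 0.00209). The surface glycoprotein CD200 went from 154, 134 and 173 to 83, 70 and 82 (-0.96, adjusted p = 0.000686).

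Upstream of ATF4, the 3 other eIF2 kinases did not pass as deposited. HRI (EIF2AK1) was at a log2 difference of 0.17 (adjusted p = 0.0631, and 0.0228 with the replicate number as a block). It rose after quantile normalization (0.26, adjusted p = 0.00999) and with equal totals (0.30, adjusted p = 0.00328). PKR (EIF2AK2) was at -0.06 and GCN2 (EIF2AK4) at -0.01, and the constitutive GADD34 paralogue PPP1R15B was at 0.07 (adjusted p = 0.443). Of the 23 genes of the eIF2 kinases, eIF2, its exchange factor eIF2B and its phosphatase, 7 fell, 1 rose and 15 did not pass. Calls came to 34.8%, beside 27.0% of all tested genes, and the median was -0.06. Under the block 7 fell and 2 rose, where 3059 of all 15637 genes fell and 2423 rose. NCK2, an adaptor of receptor signalling also reported to act on eIF2 phosphorylation, fell from 1649 ± 74.8 to 716 ± 55.7 (-1.20, adjusted p = 8.86e-07). EIF2S2, the beta subunit of eIF2, fell from 8245 ± 819 to 5737 ± 237 (-0.52, adjusted p = 0.000375), and DNAJC3, the chaperone p58IPK that inhibits eIF2 kinases, from 2131 ± 215 to 1411 ± 125 (-0.59, adjusted p = 0.000526). The 7-mer seed match was present in the 3′ UTR of these 3 of the 7 that fell and of 4 of the 15 that did not pass, EIF2AK1 and EIF2AK2 among them. Among all genes searched 15.6% held it, and the share among all genes that fell was not computed. PPP1CB, a catalytic subunit of protein phosphatase 1, fell by 0.24 on the log2 scale (adjusted p = 0.00835) but not after quantile normalization (0.0671) or with equal totals (0.125). With equal totals, which move all genes upward alike, 3 fell and 7 rose, where 1546 of all 15637 genes fell and 3868 rose. Relative to the median of all tested genes, the median of this list was -0.06 as deposited, -0.06 with equal totals and 0.03 after quantile normalization.

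Among bZIP factors that work beside ATF4, 2 of 14 tested fell, 0 rose and 12 did not pass. Calls came to 14.3%, beside 27.0% of all tested genes, and the median was -0.09. Relative to the median of all tested genes, the list's median was -0.10 as deposited, -0.09 after quantile normalization and -0.10 with equal totals. With the replicate number as a block 5 fell and 1 rose, where 3059 of all 15637 genes fell and 2423 rose. NFE2L1, which controls proteasome genes, fell from 13454 ± 458 to 9232 ± 248 (-0.54, adjusted p = 4.43e-05), and CREB1 from 1803 ± 154 to 1326 ± 115 (-0.44, adjusted p = 0.0023). Both hold the 7-mer seed match, as do 2 of the 12 that did not pass, JDP2 and ATF7, and 15.6% of all genes searched. DDIT3 (CHOP), the ATF4-induced factor tied to cell death, was 834, 697 and 738 in siCTL and 692, 529 and 674 in siADAMTS12, a log2 difference of -0.27 (adjusted p = 0.101, and 0.0201 with the block). ATF3 was 255, 258 and 232 against 240, 229 and 227 (-0.10, adjusted p = 0.526), and ATF5 was at -0.23 (adjusted p = 0.153, and 0.0417 with the block).

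Of 42 other known ATF4 targets 40 were tested, and 18 fell, 0 rose and 22 did not pass (45% called, median -0.20). Among all tested genes 27.0% were called. FGF21 was listed at 0 and SLC6A9 was below the filter. Of the 12 aminoacyl-tRNA synthetases in the list, a grouping made after the values were seen, 7 fell and 0 rose, where 15.5% of all tested genes fell. With equal totals 3 of them fell (NARS1, AARS1 and YARS1), and after quantile normalization 6. NARS1, which charges tRNA with asparagine, fell from 9394 ± 398 to 4540 ± 247 (-1.05, adjusted p = 5.45e-07), and AARS1, its alanine counterpart, from 6174 ± 193 to 4409 ± 134 (-0.49, adjusted p = 8.72e-05). The tRNA exporter XPOT went from 7361 ± 477 to 4706 ± 124 (-0.64, adjusted p = 2.29e-05), and the neutral amino acid transporter SLC1A4 from 1376 ± 68.1 to 941 ± 37.5 (-0.55, adjusted p = 0.000152). The seed 7-mer was present in 2 of the 18 that fell, SLC1A4 among them, and in 2 of the 22 that did not pass. Among all genes searched 15.6% held it. With equal totals 9 fell and 0 rose, and after quantile normalization 14 fell and 0 rose. Of all 15637 genes, 1546 and 2078 fell in these 2 settings. Relative to the median of all tested genes, the list's median was -0.21 as deposited, -0.11 after quantile normalization and -0.21 with equal totals.

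The other arms of the unfolded protein response, IRE1-XBP1 and ATF6, with the chaperones they induce, had the lowest median of the 6 pathway lists. Of 20 genes 11 fell, 0 rose and 9 did not pass (55% called, median -0.36). Among all tested genes 27.0% were called and 15.5% fell. In this list 6 fell under equal totals and 8 after quantile normalization, where 1546 and 2078 of all 15637 genes fell. Relative to the median of all tested genes, the list's median was -0.36 as deposited, -0.27 after quantile normalization and -0.36 with equal totals. The HSP90 family chaperone HSP90B1 was at -0.81 (adjusted p = 2.93e-05) and the lectin chaperone CALR at -0.50 (adjusted p = 0.00036). HYOU1, an HSP70 family chaperone, fell from 9269 ± 778 to 6409 ± 153 (-0.53, adjusted p = 0.000182), and SEL1L, of the degradation complex for misfolded proteins, from 4274 ± 241 to 3276 ± 33.9 (-0.38, adjusted p = 0.000749). The seed 7-mer was present in 1 of the 11 that fell, HSP90B1, and in 1 of the 9 that did not pass, ERN1. Among all genes searched 15.6% held it.

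**Figure D4:**
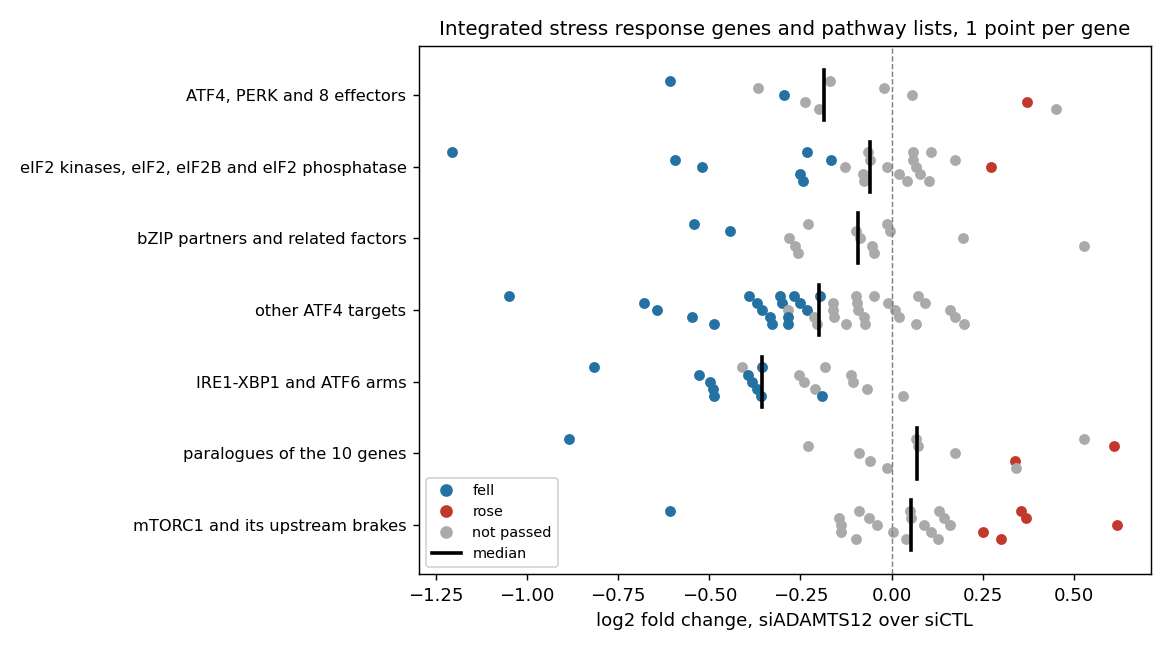
Log2 fold change, siADAMTS12 over siCTL (horizontal axis), of the 10 genes and of 6 pathway lists, 1 point per tested gene, blue where it fell, red where it rose and grey where it did not pass, with black bars at the medians. The other ATF4 targets (18 of 40 fell) and the IRE1-XBP1 and ATF6 arms (11 of 20 fell) hold no red point, while the mTORC1 list holds 5 red points and 1 blue.

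Paralogues of the 10 genes were listed beside them. Of SESN2, DDIT4 and CHAC1, whose paralogues are named first, only SESN2 itself passed as deposited. SESN1, like SESN2 a sestrin, rose from 343 ± 31.6 to 525 ± 63.4 (0.61, adjusted p = 0.0019). DDIT4L, the paralogue of DDIT4, fell from 149 ± 17.3 to 84.3 ± 30.7 (-0.88, adjusted p = 0.0225), and CHAC2, the paralogue of CHAC1, rose from 238 ± 15.2 to 301 ± 26.0 (0.34, adjusted p = 0.0371). CEBPD, like CEBPB, varied widely between libraries (140, 339 and 211 against 229, 298 and 442, log2 difference 0.53, adjusted p = 0.206). In all, 1 of 12 tested paralogues fell and 2 rose (25% called, beside 27.0% of all tested genes, median 0.07). With the replicate number as a block 2 fell and 3 rose, where 3059 of all 15637 genes fell and 2423 rose.

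DDIT4 and SESN2 act on mTORC1, so its subunits and upstream regulators were also listed. Of 23 tested, 1 fell, 5 rose and 17 did not pass (26.1% called, beside 27.0% of all tested genes, median 0.05). With equal totals 1 fell and 9 rose, where 1546 of all 15637 genes fell and 3868 rose. Relative to the median of all tested genes, the list's median was 0.05 as deposited, 0.06 after quantile normalization and 0.05 with equal totals. RHEB, the small GTPase that activates mTORC1 and that the TSC complex switches off, fell from 5228 ± 284 to 3428 ± 175 (-0.61, adjusted p = 4.19e-05). RRAGB, a Rag GTPase that brings mTORC1 to the lysosome when amino acids are present, rose from 352 ± 17.8 to 540 ± 19.1 (0.62, adjusted p = 0.000265). RPTOR, the mTORC1 scaffold, rose from 2292 ± 59.6 to 2928 ± 75.7 (0.35, adjusted p = 0.000896), and CASTOR2, of the arginine sensor family, from 589 ± 26.8 to 725 ± 13.1 (0.30, adjusted p = 0.0116). RNA levels of these regulators do not measure mTORC1 activity.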

How the data were processed

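The deposited table holds 1 row per gene and 1 column per library. Its unit is treated here as a score: the authors deposited normalized counts, as whole numbers, per the file's name. STAR, HTSeq and DESeq2 are named in the submitters' processing notes, with the build GRCh38. For the versions, annotation, counting mode and strand setting, nothing is stated in the labels or the file. The depth in reads is therefore unknown, which leaves no count model to use. Genes with a mean of at least 10 were analysed as log2(value + 1), which understates the fold changes of low genes, with limma 3.58.1 in R 4.3.3 (group as the only term, intensity trend). The fit was tested on simulated data.

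The 10 genes and all gene lists were chosen with earlier results of these data known. From each of the 6 pathway lists, up to 4 genes past the threshold were named, by smallest adjusted p and with groups not overlapping. Where none passed, the one with the smallest p was to be named. The 3 genes most correlated with ATF4 were also named. Other genes named were added for their roles or after their values were seen. They are EIF2AK1, EIF2AK2, EIF2AK4, PPP1R15B, DDIT3, ATF3, ATF5, CEBPD and YARS1, and the seed match holders JDP2, ATF7 and ERN1. The markers COL1A1, VIM, TAGLN, ACTA2, PDGFRA, PDGFRB, HAND2, LRAT, DES, KDR, SOX9, KRT19, EPCAM and CFTR were added in the same way. A replicate block was fitted as well, because the labels give both groups the same replicate numbers without saying what they share. Deviations from the group means correlated at 0.37, 0.13 and 0.13 for same-numbered libraries, against -0.19 to 0.06 for different numbers. Only replicate 1 stood well apart, so whether the numbers mark true pairs is not known. The other alternatives were pseudocounts of 0.5 and 8, no filter or a minimum mean of 50, quantile normalization, equal totals, no intensity trend and each library left out. Gene models are from GENCODE 29.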

Additional observations from a re-analysis of the deposited data

How the results depend on the processing

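The count of falling genes among the 10 was 1 after quantile normalization, 1 with the same total in every column and 5 with the replicate block, against 2; that of rising genes ran from 0 to 2 with 1 library left out. With the same total per column 3868 genes rose and 1546 fell, so that 71.4% of calls were higher, against 42.6% as deposited and 51.1% after quantile normalization, and 9 other ATF4 targets fell. With 1 library left out, 1230 to 1623 genes rose and 1873 to 2368 fell. PPP1R15A turned to 0.13 (quantile) and 0.10 (same total) and ran from -0.10 to 0.090 with 1 library left out. CHAC1 ran from -0.021 to 0.13, and the ratios to ATF4 of ASNS from -0.035 to 0.30, of DDIT4 from -0.23 to 0.036, of NUPR1 from -0.40 to -0.18, of CEBPB from 0.39 to 1.10 and of TRIB3 from -0.0042 to 0.17. ATF4 ran from -0.33 to -0.26. ASNS has no value with a minimum mean of 50. The causes were not tested. Read depth is unknown, and 3 libraries a group limit the precision.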
